A study of Mus musculus with 76 samples.

Results

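Hba-a1, Hba-a2, Alas2, Klf1, Gata1, Epor and Car2 are genes of the red blood cell lineage, and their messenger RNA was followed in 75 libraries of sorted mouse blood and thymus cells. The 7 genes were chosen by name from the 37980 genes of the expression table, and all 7 passed the filter on low values (at least 1 FPKM in at least 2 libraries). FPKM counts fragments per kilobase of transcript, scaled to the mapped fragments of the library, so that levels of different genes can be set side by side per length.

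The series asked whether forced expression of Hoxb5, a homeobox transcription factor, turns B-lineage cells into T cells. All mice were of the C57BL/6 strain. For the 9 induced groups, pro-B and pre-B cells were sorted from marrow, infected with a Hoxb5 virus in culture, sorted again for transduced cells and given to sublethally irradiated recipients. The induced cells were then sorted from the marrow or the thymus of those recipients, which keep blood-forming cells of their own after sublethal irradiation. The groups were induced early T progenitors (ETP) of marrow, ETP of thymus, 4 double negative stages (DN1 to DN4), double positive cells (DP), and CD4 and CD8 single positive cells (SP). The 15 natural groups held the same 9 stages and 6 more: stem cells of the blood (HSC), multipotent progenitors of marrow (MPP), pro/pre-B cells, and mature cells of the myeloid, T and B lineages. Each library came from 1000 sorted cells and each group held 2 to 4 libraries. The labels do not say whether the libraries of a group came from separate animals, so the spread behind the p-values may be technical. Unless stated otherwise, that spread is pooled for each gene over all 24 groups, not taken from the compared groups alone. A group at 0 FPKM in every library adds no spread to the pool.

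Red cell development runs from stem cells through a progenitor that also gives rise to megakaryocytes and mast cells to nucleated erythroblasts that fill with hemoglobin. The transcription factor GATA1 starts the program, KLF1 acts with it on the globin genes and on many genes of the red cell membrane, and the erythropoietin receptor keeps the progenitors alive. ALAS2 catalyses the first step in making the heme that the globin chains bind. Carbonic anhydrase 2 is an abundant red cell enzyme that stem and progenitor cells also carry.

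The promoter windows of Hba-a1, Klf1, Epor and Gata1 are shown because in the marrow comparison below the globin gene and the other 3 moved in opposite directions. They are from RefSeq (GRCm38.p6), run 5′ to 3′ on the strand of the gene, and reach from 250 bases before to 50 bases after its start in RefSeq. That start can differ from the gene bounds given below, which are from GENCODE. The Gata1 window lies within these bounds and the Epor window lies outside them. The windows of Hba-a1 and Klf1 reach more than 50 bases into the gene. Capitals mark GATAA or its reverse complement TTATC, the core letters bound by GATA factors, and CACCC or its reverse complement GGGTG, the core letters bound by KLF factors.
Hba-a1, chr11:32283422-32283721, plus strand: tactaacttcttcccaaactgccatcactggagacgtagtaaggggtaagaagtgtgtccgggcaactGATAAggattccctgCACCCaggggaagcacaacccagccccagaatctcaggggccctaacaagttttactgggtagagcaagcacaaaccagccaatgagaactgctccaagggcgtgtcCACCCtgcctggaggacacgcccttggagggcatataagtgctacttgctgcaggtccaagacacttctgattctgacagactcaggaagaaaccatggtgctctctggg
Klf1, chr8:84901732-84902031, plus strand: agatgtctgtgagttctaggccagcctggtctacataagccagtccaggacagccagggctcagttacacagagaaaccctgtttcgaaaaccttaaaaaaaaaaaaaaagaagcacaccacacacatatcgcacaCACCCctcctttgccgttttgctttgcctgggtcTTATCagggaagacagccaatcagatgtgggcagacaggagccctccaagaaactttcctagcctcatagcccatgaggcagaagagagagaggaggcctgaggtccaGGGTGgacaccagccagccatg
Epor, chr9:21963527-21963826, minus strand: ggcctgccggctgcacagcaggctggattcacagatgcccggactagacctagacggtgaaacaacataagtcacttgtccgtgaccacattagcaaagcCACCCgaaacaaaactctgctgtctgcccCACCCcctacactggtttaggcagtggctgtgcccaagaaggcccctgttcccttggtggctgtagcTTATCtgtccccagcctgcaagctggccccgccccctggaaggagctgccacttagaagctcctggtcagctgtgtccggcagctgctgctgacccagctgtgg
Gata1, chrX:7967861-7968160, minus strand: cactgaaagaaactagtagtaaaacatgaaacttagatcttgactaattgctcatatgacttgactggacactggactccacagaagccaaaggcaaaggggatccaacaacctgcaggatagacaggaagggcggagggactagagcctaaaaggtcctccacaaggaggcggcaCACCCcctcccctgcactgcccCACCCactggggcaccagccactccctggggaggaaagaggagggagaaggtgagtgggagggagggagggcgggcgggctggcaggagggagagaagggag
GATAA on either strand occurred 1 time in the windows of Hba-a1, Klf1 and Epor, 1 time in that of Alas2, and 0 times in that of Gata1. CACCC on either strand occurred 2 times in the windows of Hba-a1, Klf1, Epor and Gata1, and 3 times in that of Alas2. Of the 32851 windows in the table, 25.4% held GATAA and 57.5% held CACCC, and in the printed windows no match of one motif overlapped a match of the other. A match describes the letters only.

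The Hba-a1 gene (chromosome 11, 32283511 to 32284465, plus strand, GRCm38) and Hba-a2 (32296489 to 32297298, plus strand) are neighbouring copies of the adult alpha globin gene, and their near identity limits what the 2 rows can say. Their promoter windows share a run of 297 identical bases out of 300, and their coding sequences of 429 bases differ at 1 base, C381T, counted from the A of the start codon with the base of Hba-a1 first. That base is the capital in these stretches of coding positions 361 to 401.
Hba-a1: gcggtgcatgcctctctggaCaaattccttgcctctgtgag
Hba-a2: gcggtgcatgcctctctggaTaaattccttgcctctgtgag
Fragments away from that base and from the untranslated ends cannot be told apart, so the split between the 2 rows depends on how the authors' software shared such fragments, and their sum is given beside them. The adult beta globin genes Hbb-bs and Hbb-bt, which are not members of the set but code for the partner chain, differ at 1 of 444 coding bases (C417T) and share this limit.

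Some libraries stood apart in ways that touch these genes. The file lists 76 libraries, and pro/pre-B replicate 3 was left out because its values were identical to those of replicate 1. Among the 3 pro/pre-B libraries kept, replicate 2 held globin RNA and replicate 4 held neutrophil genes, with 2009 FPKM of S100a8. A myeloid list of 14 genes summed to 5825 FPKM in the highest of the 3 and to 57.9 and 84.9 FPKM in the other libraries. The marrow groups labelled as early T progenitors carried little T-lineage RNA. In natural marrow ETP a list of 12 T-lineage genes summed to 6.90 to 14.7 FPKM and the myeloid list to 30947 to 48962 FPKM. In induced marrow ETP the T-lineage list summed to 43.2 and 48.0 FPKM with 9 of 12 genes listed at 0 in both libraries, the myeloid list summed to 1285 and 2096 FPKM, and a list of 12 B-lineage genes summed to 11515 and 11744 FPKM. The B-lineage sum of pro/pre-B cells was 13588 to 14573 FPKM. The part of these markers in the results below was not tested.

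Alpha globin RNA was highest in induced marrow ETP. Hba-a1 was at 59.9 and 33.1 FPKM in the 2 induced marrow ETP libraries and at 1.09, 10.7 and 1.95 FPKM in the 3 natural marrow ETP libraries. Hba-a2 was at 127 and 86.8 FPKM in induced marrow ETP and at 0, 3.06 and 0 FPKM in natural marrow ETP. Both induced libraries lay above all natural ones for both genes, with no overlap. In a linear model over all 75 libraries (limma, log2(FPKM + 1), Benjamini-Hochberg adjustment over 17416 genes), Hba-a1 was 3.45 ± 0.47 (SE) log2 units higher in induced than in natural marrow ETP (adjusted p = 1.48e-08). Hba-a2 was 6.06 ± 0.50 log2 units higher (adjusted p = 1.44e-15). These differences are on the log2(FPKM + 1) scale, which understates the change of low genes. In bulk samples fewer cells of a type and less RNA per cell cannot be told apart, here or in any result below. With only these 2 groups in the fit, the call for Hba-a1 was lost (adjusted p = 0.0911) and that for Hba-a2 was kept (adjusted p = 0.0222).

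**Figure D1:**
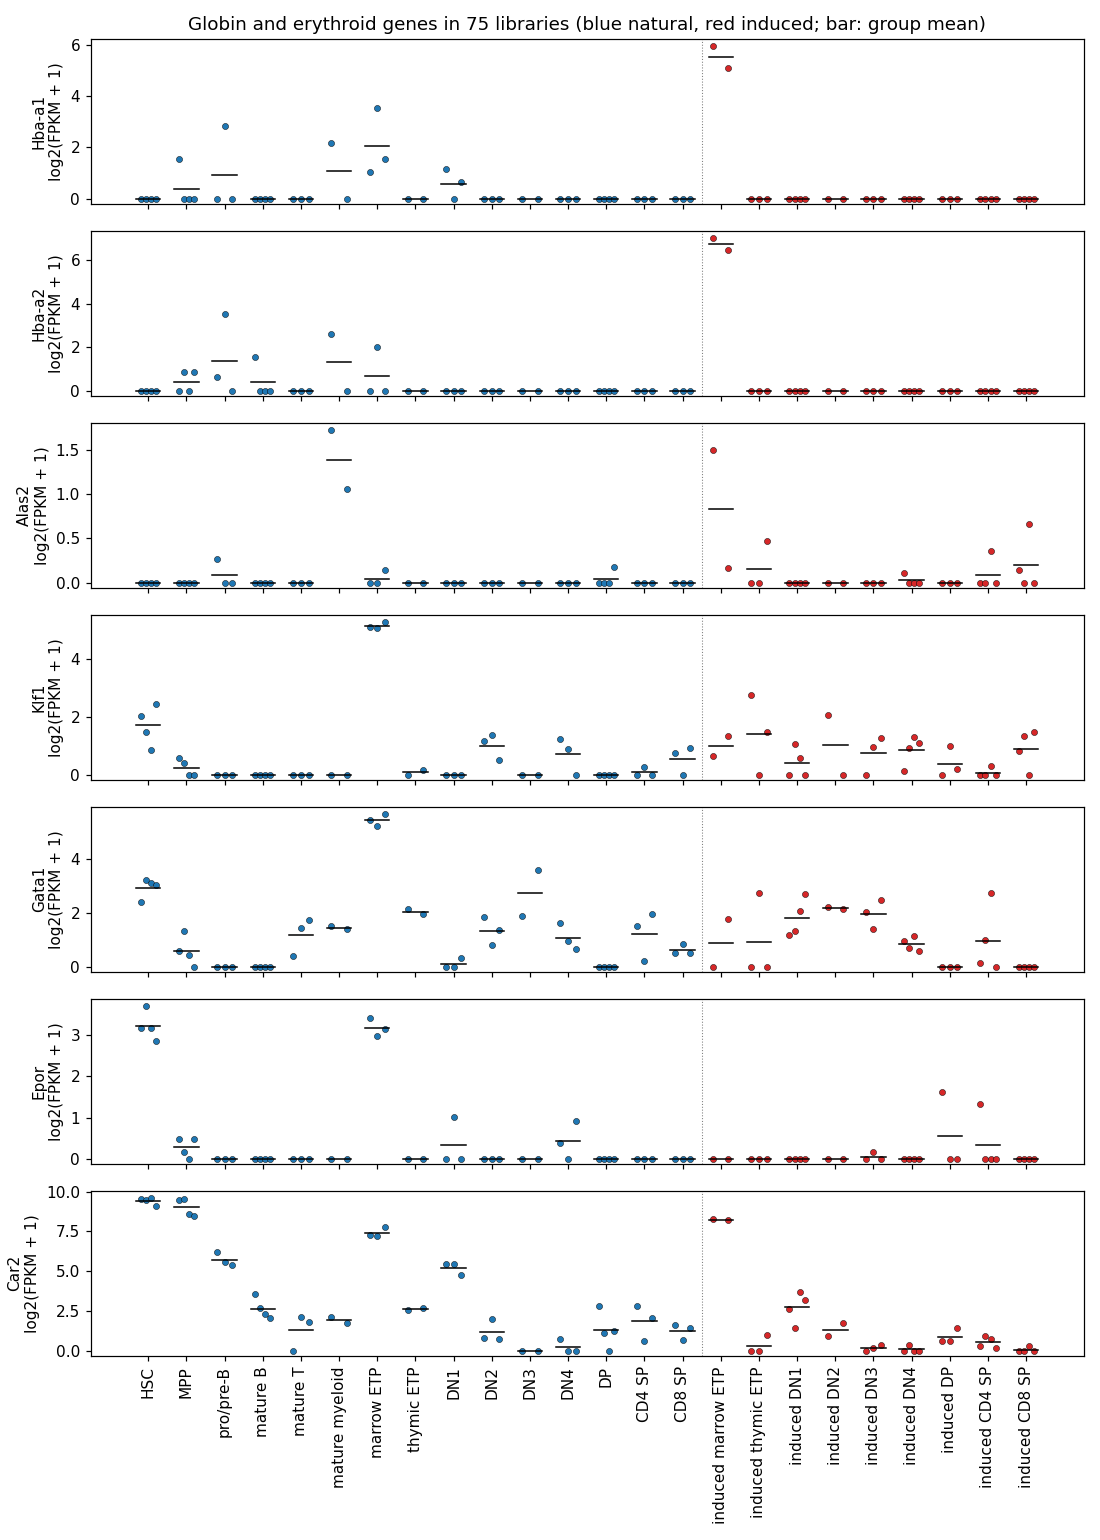
Level of each of the 7 genes in log2(FPKM + 1) (vertical axes, which differ) in each of the 24 groups (horizontal axis); each point is 1 library, blue for natural and red for induced cells, and each bar is the group mean of these values. The 2 alpha globin genes peak in induced marrow ETP, Klf1 and Gata1 in natural marrow ETP, Epor in HSC and natural marrow ETP, and Car2 in HSC and MPP.

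Of all tested genes 31.1% were called between induced and natural marrow ETP, 14.4% higher and 16.8% lower. Of the 7 genes, 6 were called, 3 higher (Hba-a1, Hba-a2 and Alas2) and 3 lower (Klf1, Gata1 and Epor). Their median difference was 0.78 log2 units, beside a median of 0 over all tested genes. Car2 was the gene not called.

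Outside induced marrow ETP, alpha globin was low and scattered. Hba-a1 was listed at 0 in 65 of 75 libraries and Hba-a2 in 66 of 75, and their sum was 187 and 120 FPKM in the 2 libraries of induced marrow ETP. All 4 HSC libraries were listed at 0 for both genes, and so were all libraries of thymic ETP and of the induced groups from the thymus. The next highest sum was in pro/pre-B replicate 2, at 16.6 FPKM, where the other pro/pre-B libraries were at 0.562 and 0 FPKM. Natural marrow ETP replicate 2 followed at 13.7 FPKM, where the other 2 libraries of its group were at 1.09 and 1.95 FPKM. Each of these groups thus took most of its mean from 1 library. Of the mature myeloid libraries, 1 held 8.66 FPKM and the other was listed at 0. In order of group means, Hba-a1 in induced marrow ETP did not overlap with natural marrow ETP, the next group, while natural marrow ETP, pro/pre-B cells and mature myeloid cells overlapped in turn.

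Alpha globin also exceeded the level in the cells from which the induced groups were made. Pro/pre-B cells had 0, 6.12 and 0 FPKM of Hba-a1 in replicates 1, 2 and 4, and 0.562, 10.5 and 0 FPKM of Hba-a2, all below both induced marrow libraries. Of all genes 15.5% were called in this comparison, 8.1% higher, and 4 of the 7 genes were, all higher in induced marrow ETP. Hba-a1 was 4.57 ± 0.47 log2 units higher (limma, adjusted p = 1.12e-11) and Hba-a2 5.34 ± 0.50 log2 units (adjusted p = 4.34e-13). Without pro/pre-B replicate 2, the differences were 5.51 and 6.41 log2 units. With only the 2 groups in the fit, 0 of the 7 genes and 13 genes of the whole table passed, and the adjusted p rose to 0.289 for Hba-a1 and 0.273 for Hba-a2. The comparisons of induced marrow ETP in this report share its 2 libraries.

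Beta globin RNA was also higher in induced than in natural marrow ETP. Hbb-bs was at 200 and 89.5 FPKM in induced marrow ETP, against 3.12, 2.72 and 1.26 FPKM in natural marrow ETP, with no overlap. Hbb-bt was at 80.7 and 34.1 FPKM against 6.22, 11.3 and 2.19 FPKM, again with no overlap. The Hbb-bt range of induced marrow ETP did overlap with that of MPP, at 25.4 to 41.1 FPKM. Hbb-bs was 5.37 ± 0.51 log2 units higher in induced marrow ETP (limma, adjusted p = 3.55e-13) and Hbb-bt 3.02 ± 0.79 log2 units (adjusted p = 0.00192). The ratio of summed beta to summed alpha globin FPKM was 1.498 and 1.03 in the 2 induced marrow libraries, 1.06 in pro/pre-B replicate 2 and 1.02 in natural marrow ETP replicate 2. These 4 libraries, the ones with the most alpha globin, therefore held alpha and beta globin at similar levels per length.

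**Figure D2:**
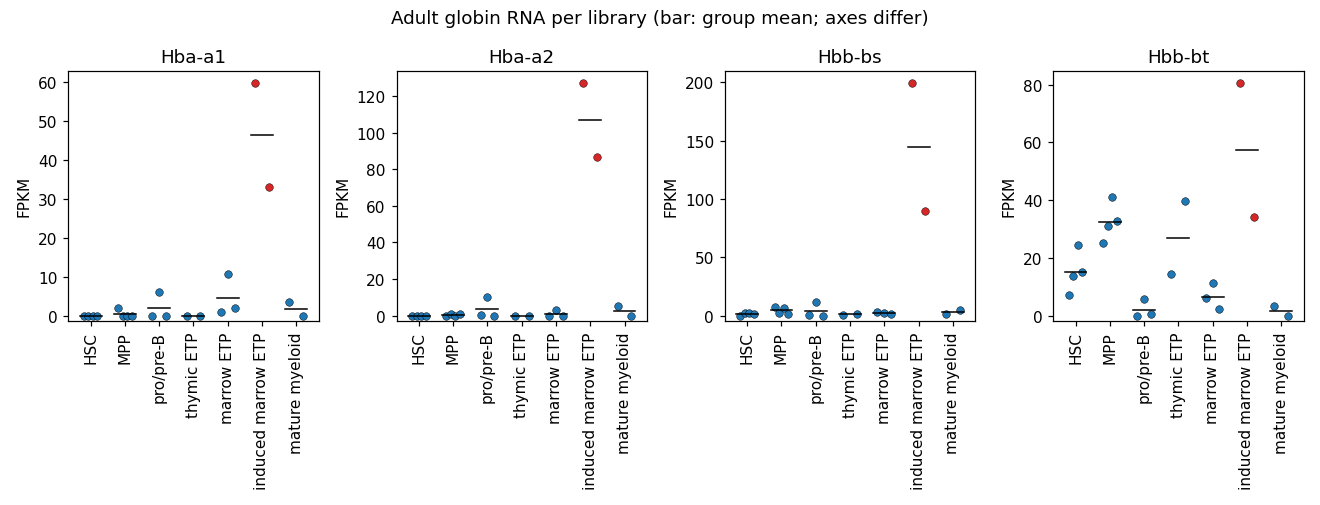
FPKM of the adult alpha globin genes Hba-a1 and Hba-a2 and the adult beta globin genes Hbb-bs and Hbb-bt (vertical axes, linear, which differ) in 7 groups (horizontal axis); points are libraries, red for induced marrow ETP, and bars are group means. Alpha globin is near 0 in HSC, MPP and thymic ETP, where Hbb-bt reaches 7.13 to 41.1 FPKM.

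Stem and progenitor libraries, and some libraries of other groups, held beta globin with almost no alpha globin. In the 4 HSC libraries Hbb-bt was at 7.13, 13.8, 24.5 and 15.2 FPKM and both alpha globin genes were listed at 0. In the 4 MPP libraries Hbb-bt was at 25.4 to 41.1 FPKM, while the alpha globin sum was at 1.96, 0.826, 0 and 0.798 FPKM. In both thymic ETP libraries Hbb-bt was at 14.3 and 39.6 FPKM with alpha globin listed at 0. The summed beta globin was 20.5 FPKM in DN1 replicate 2, 22.1 in DN2 replicate 1 and 10.5 in induced DN2 replicate 2. Alpha globin was listed at 0 in these libraries too. DN1 replicate 1 instead held 1.22 FPKM of alpha globin with beta globin listed at 0. The share of the beta pair assigned to Hbb-bs was 71.2% and 72.4% in induced marrow ETP and 67.5% in pro/pre-B replicate 2. It was 0% to 14.6% in HSC, 3.98% to 21.9% in MPP, 4.33% and 4.39% in thymic ETP and 19.3% to 36.5% in natural marrow ETP. Induced marrow ETP and pro/pre-B replicate 2 thus had mostly Hbb-bs, and HSC, MPP and thymic ETP mostly Hbb-bt, within the limit on telling the copies apart. Natural marrow ETP replicate 2, which held alpha globin too, was at 19.3%. The embryonic globin genes Hba-x, Hbb-bh1 and Hbb-y were listed at 0 in all libraries of HSC, MPP, pro/pre-B cells and marrow ETP, natural and induced.

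Alas2, the erythroid form of the first enzyme of heme synthesis, was near the limit of detection. It was listed at 0 in 63 of 75 libraries and never passed 2.29 FPKM. In induced marrow ETP it was at 1.83 and 0.120 FPKM, and in natural marrow ETP at 0, 0 and 0.105 FPKM. Mature myeloid cells had the highest mean, with 2.29 and 1.08 FPKM. Their libraries had the lowest depth of the series, where 1 FPKM stood for an estimated 0.979 and 0.974 fragments per kilobase. In the 2 induced marrow libraries 1 FPKM stood for an estimated 3.44 and 4.41 fragments per kilobase, so that 0.120 FPKM was under 1 fragment per kilobase. Alas2 was 0.78 ± 0.18 log2 units higher in induced than in natural marrow ETP (limma, adjusted p = 0.00032). That call rested on 1 library: without induced marrow replicate 1 the difference was 0.12 log2 units (adjusted p = 0.774), and with only the 2 groups in the fit the adjusted p was 0.345. The same library held the higher globin level of the pair.

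Of 13 genes of heme synthesis and its transport, all tested between induced and natural marrow ETP, 1 was higher, 5 were lower and 7 did not pass, with a median of -0.84 log2 units beside 0 for all genes. The 1 higher gene was Alas2. Over all tested genes 14.4% were higher and 16.8% lower. Alas1, the housekeeping form of the same enzyme, was at 12.9 and 6.55 FPKM in induced marrow ETP and at 171, 189 and 170 FPKM in natural marrow ETP, and fell by 4.11 ± 0.41 log2 units (limma, adjusted p = 1.27e-12). Fech, which inserts the iron, was at 12.1 and 6.35 FPKM against 15.8, 17.8 and 16.0 FPKM and did not pass (-0.84 ± 0.43 log2 units, adjusted p = 0.143).

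Gata1 (chromosome X, 7959260 to 7978071, minus strand, GRCm38) was highest in natural marrow ETP, at 41.9, 35.6 and 48.8 FPKM. Induced marrow ETP had 0 and 2.38 FPKM, so that every natural library lay above both induced ones. Gata1 was 4.54 ± 0.57 log2 units lower in induced than in natural marrow ETP (limma, adjusted p = 1.77e-09). The induced marrow library listed at 0 was replicate 1, which had the higher globin. The difference of induced marrow ETP from pro/pre-B cells, the cells of origin, did not pass (0.88 ± 0.57 log2 units, adjusted p = 0.369). DN3 and HSC followed natural marrow ETP in the order of means, without overlap with it. HSC had 4.29, 8.20, 7.51 and 7.25 FPKM, and the 2 DN3 libraries had 2.73 and 10.9 FPKM and overlapped with HSC. Gata1 was listed at 0 in all libraries of pro/pre-B cells, mature B cells, DP, induced DP and induced CD8 SP, and was between 0 and 5.73 FPKM in each library of the remaining groups.

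Klf1 (chromosome 8, 84901928 to 84905291, plus strand, GRCm38) had the same leading group. It was at 33.6, 33.1 and 37.6 FPKM in natural marrow ETP, a mean of 34.7 ± 2.46 FPKM (SD, n = 3), and at 0.584 and 1.53 FPKM in induced marrow ETP. The groups did not overlap, and Klf1 was 4.16 ± 0.47 log2 units lower in induced than in natural marrow ETP (limma, adjusted p = 1.31e-10). Both induced marrow libraries lay above pro/pre-B cells, the cells of origin, but that difference did not pass (1.00 ± 0.47 log2 units, adjusted p = 0.164). After natural marrow ETP, HSC had the next highest mean, at 3.10, 1.81, 0.812 and 4.502 FPKM, below every natural marrow ETP library. Induced thymic ETP had 5.83, 0 and 1.82 FPKM, and the 2 natural thymic ETP libraries had 0 and 0.126 FPKM. All libraries of DN1, DN3, DP, pro/pre-B cells and the 3 mature cell groups were listed at 0.

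**Figure D3:**
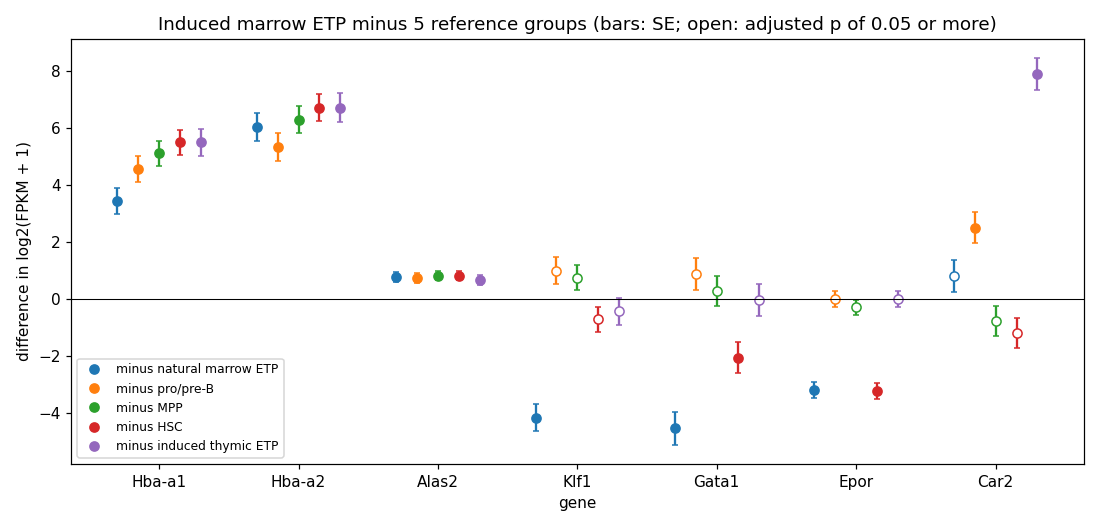
Difference in log2(FPKM + 1) between induced marrow ETP and each of 5 reference groups (vertical axis) for the 7 genes (horizontal axis), with bars of 1 SE from the model over all libraries; filled points have an adjusted p under 0.05. The 2 alpha globin genes lie above 0 in all 5 comparisons, while Klf1, Gata1 and Epor lie furthest below 0 against natural marrow ETP or, for Epor, against natural marrow ETP and HSC; where one group is listed at 0, the difference is not a fold change.

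Most transcription factors of the lineage were lower. Of 14 tested between induced and natural marrow ETP, 0 were higher, 11 were lower and 3 did not pass. These 14 include Gata1 and Klf1, which are among the lower ones. The list had a median of -2.38 log2 units beside 0 for all genes. Nfe2, a factor of red cells and megakaryocytes, was at 1.11 and 7.25 FPKM against 203, 162 and 213 FPKM. It was 5.53 ± 0.49 log2 units lower (limma, adjusted p = 3.1e-14). Gata2, which precedes GATA1 in progenitors, was at 0 and 11.2 FPKM against 61.0, 56.5 and 82.8 FPKM. It was 4.26 ± 0.35 log2 units lower (adjusted p = 1.99e-15). Zfpm1, the GATA1 cofactor known as FOG-1, was at 9.81 and 7.90 FPKM against 2.03, 2.11 and 4.54 FPKM and did not pass (1.39 ± 0.63 log2 units, adjusted p = 0.0891). Of the lists of other lineages, 10 of 12 megakaryocyte genes, 6 of 7 mast cell and basophil genes, 4 of 8 eosinophil genes, 12 of 14 myeloid genes and 9 of 12 stem and progenitor genes were lower in induced marrow ETP. In these lists 1 gene, of the megakaryocyte list, was higher. The shares over all tested genes were 14.4% higher and 16.8% lower. The 12 B-lineage genes tested were all higher.

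Epor (chromosome 9, 21958897 to 21963506, minus strand, GRCm38) encodes the receptor for erythropoietin, the hormone that sustains red cell progenitors. It was at 7.99, 11.97, 8.07 and 6.23 FPKM in HSC and at 9.61, 6.86 and 7.93 FPKM in natural marrow ETP, and these 2 groups overlapped. Both induced marrow ETP libraries and all 3 pro/pre-B libraries were listed at 0. MPP had 0.398, 0.131, 0 and 0.408 FPKM, and no library outside HSC and natural marrow ETP passed 2.10 FPKM, the level of 1 induced DP library. Epor was called lower in induced than in natural marrow ETP (limma, adjusted p = 4.8e-14) and than in HSC (adjusted p = 2.35e-15), and no fold is given because the induced group was listed at 0.

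Genes around the erythropoietin receptor split in direction. The 12 genes of its signaling that were tested include Epor itself, which is among the lower ones. In induced against natural marrow ETP, 4 were higher, 4 were lower and 4 did not pass, with a median of 0.03 log2 units. Socs2, a feedback inhibitor of cytokine signaling, was at 187 and 120 FPKM in induced marrow ETP. In natural marrow ETP it was at 4.93, 2.52 and 3.95 FPKM. Socs2 was 5.00 ± 0.55 log2 units higher in induced marrow ETP (limma, adjusted p = 4.1e-11). Cish, another such inhibitor, was 2.73 ± 0.41 log2 units higher (adjusted p = 1.6e-07). Stat5a, a transcription factor that the receptor activates, was 1.90 ± 0.32 log2 units lower (adjusted p = 2.08e-06). Many other cytokine receptors use these genes too. Between induced and natural marrow ETP, 14.4% of all tested genes were higher and 16.8% lower.

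Car2 (chromosome 3, 14886273 to 14900770, plus strand, GRCm38) was the most abundant of the 7 genes and the one not called between induced and natural marrow ETP. It was at 737, 725, 762 and 553 FPKM in HSC and at 714, 735, 389 and 354 FPKM in MPP, which overlapped. Induced marrow ETP had 309 and 293 FPKM, natural marrow ETP 153, 145 and 223 FPKM, and pro/pre-B cells 72.9, 45.9 and 41.6 FPKM. In this order MPP, induced marrow ETP, natural marrow ETP and pro/pre-B cells did not overlap with their neighbours, and pro/pre-B cells overlapped with DN1. The difference of 0.82 ± 0.55 log2 units between induced and natural marrow ETP did not pass (limma, adjusted p = 0.298), although both induced libraries were higher than all 3 natural ones. Against pro/pre-B cells Car2 was 2.52 ± 0.55 log2 units higher in induced marrow ETP (adjusted p = 0.000571), but with 0.1 in place of 1 added to FPKM the adjusted p was 0.128. Against MPP and HSC the differences of -0.78 and -1.19 log2 units did not pass (adjusted p = 0.273 and 0.0683).

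Membrane proteins and enzymes of the red cell were mostly lower in induced than in natural marrow ETP. Of 27 such genes, Car2 among them, 22 could be tested. Of these, 2 were higher, 14 were lower and 6 did not pass, with a median of -1.13 log2 units. Among all tested genes 14.4% were higher and 16.8% lower. Slc4a1, the anion exchanger that dominates the mature red cell membrane, was listed at 0 in both induced and all 3 natural marrow ETP libraries. Car1, a carbonic anhydrase of red cells, was at 0 and 6.29 FPKM against 107, 154 and 165 FPKM, and fell by 5.70 ± 0.28 log2 units (limma, adjusted p = 2.54e-25). Tfrc, the transferrin receptor that dividing cells use to take up iron, was 1 of the 2 higher genes. It was at 203 and 199 FPKM against 32.2, 39.7 and 22.5 FPKM, with 57.0 to 110 FPKM in pro/pre-B cells.

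**Figure D4:**
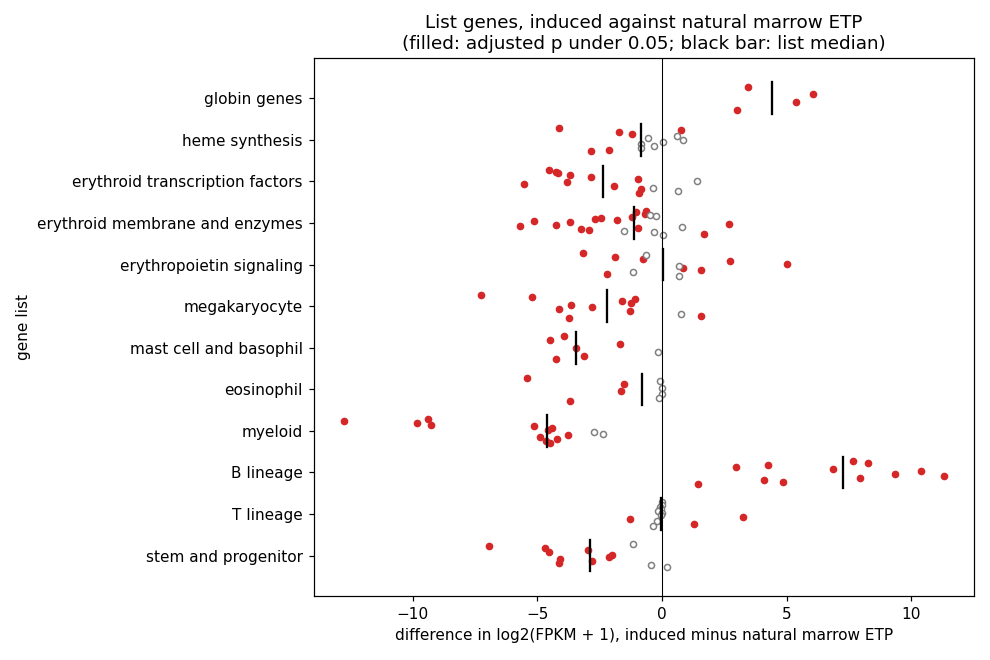
Difference in log2(FPKM + 1) between induced and natural marrow ETP (horizontal axis) for the tested genes of 12 lists (vertical axis); filled points have an adjusted p under 0.05 and black bars are list medians. The globin list (median 4.41) and the B-lineage list (median 7.26) lie above 0. The medians for erythroid transcription factors (-2.38), megakaryocyte (-2.20) and myeloid genes (-4.61) lie below 0. The globin median rests on Hba-a1, Hba-a2, Hbb-bs and Hbb-bt, whose differences are given above, and is not a separate result.

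Against the 2 early progenitor groups, induced marrow ETP differed in the same alpha globin genes. Of all genes 35.8% were called against MPP, 15.1% higher, and 3 of the 7 genes were higher in induced marrow ETP, namely Hba-a1 by 5.12 ± 0.44 log2 units (limma, adjusted p = 7.61e-15), Hba-a2 by 6.30 ± 0.47 (adjusted p = 2.93e-17) and Alas2, which MPP listed at 0. Against HSC, where 37.6% of genes were called, Hba-a1, Hba-a2 and Alas2 were higher, all listed at 0 in HSC, and Gata1 and Epor were lower. The Gata1 difference of -2.06 log2 units from HSC (adjusted p = 0.00144) was not called without induced marrow replicate 1 (-1.18 log2 units, adjusted p = 0.204) or with only the 2 groups in the fit (adjusted p = 0.0568). Against each of these groups, Alas2 was not called without that library. Nor was it called with only the 2 groups in the fit (adjusted p = 0.204 for MPP and 0.191 for HSC).

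Among natural cells, the erythroid regulators separated HSC and marrow ETP from MPP. Klf1, Gata1 and Epor were higher in HSC than in MPP, by 1.47 ± 0.37, 2.34 ± 0.44 and 2.94 ± 0.22 log2 units (limma, adjusted p = 0.00382, 5.62e-05 and 1.48e-16), in a comparison that called 8.13% of genes, 5.01% higher. None of the HSC libraries overlapped with an MPP library for these 3 genes. The call for Klf1 was lost after quantile normalization (adjusted p = 0.0726) and with only the 2 groups in the fit (adjusted p = 0.085). Natural marrow ETP exceeded MPP in Klf1 by 4.91 ± 0.40, in Gata1 by 4.83 ± 0.47 and in Epor by 2.89 ± 0.24 log2 units, where 27.8% of genes were called. Car2 was lower than in MPP, at -1.60 ± 0.46 log2 units (adjusted p = 0.00614, or 0.229 with 0.1 added to FPKM). Hba-a1 was 1.66 ± 0.39 log2 units higher, a call lost without natural marrow ETP replicate 2 (adjusted p = 0.0847). It was also lost with only the 2 groups in the fit (adjusted p = 0.169).

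Natural marrow ETP and MPP were also set against pro/pre-B cells. Klf1, Gata1 and Epor were listed at 0 in pro/pre-B cells and were called higher in natural marrow ETP, where 33.1% of genes were called. Car2 was 1.70 ± 0.50 log2 units higher in natural marrow ETP (limma, adjusted p = 0.00515, or 0.196 with 0.1 added to FPKM). Hba-a1 passed as the fifth gene (1.11 ± 0.42 log2 units, adjusted p = 0.0328). The call was lost without pro/pre-B replicate 1 or 4 or natural marrow ETP replicate 2 (adjusted p 0.322 to 0.608). It was also lost with only the 2 groups in the fit (adjusted p = 0.539). Of MPP against pro/pre-B cells, where 38.3% of genes were called, Car2 was the 1 gene that passed, 3.30 ± 0.46 log2 units higher in MPP (adjusted p = 2.65e-08).

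In induced cells of the thymus alpha globin was listed at 0, while Gata1, Klf1 and Car2 were found at low levels. Both alpha globin genes were listed at 0 in every induced library from the thymus, and Epor in all but 3 of them. Gata1 had group means of 2.87 FPKM in induced DN1, 3.56 FPKM in induced DN2 and 3.06 FPKM in induced DN3, beside 1.19 FPKM in induced marrow ETP, and these groups overlapped with it except DN2. Against induced thymic ETP, where 31% of genes were called and 15.6% were higher, Hba-a1, Hba-a2, Alas2 and Car2 were higher in induced marrow ETP. The Alas2 libraries of these 2 groups overlapped, and its difference of 0.67 log2 units was 0.004 log2 units without induced marrow replicate 1 (limma, adjusted p = 1) and did not pass with only the 2 groups in the fit (adjusted p = 0.494). Car2 was at 309 and 293 FPKM in induced marrow ETP and at 0, 0 and 0.987 FPKM in induced thymic ETP, a difference of 7.91 ± 0.55 log2 units (limma, adjusted p = 3.33e-18). Natural thymic ETP had 4.93 and 5.48 FPKM of Car2, above all 3 induced thymic ETP libraries. Of all genes 8.27% were called between induced and natural thymic ETP, and Car2 was the 1 of the 7 genes that passed, at -2.30 ± 0.55 log2 units (adjusted p = 0.00336). That call was lost without natural thymic ETP replicate 2 (adjusted p = 0.0541) and with only the 2 groups in the fit (adjusted p = 0.327).

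The difference between induced and natural cells in the marrow was tested against that in thymic ETP as an interaction, in which 25% of genes passed. It passed for 6 of the 7 genes in limma and not for Alas2 (adjusted p = 0.0603). The marrow difference exceeded the thymic one for Hba-a1 and Hba-a2, which were listed at 0 in all thymic ETP libraries, and for Car2 (3.12 ± 0.78 log2 units, adjusted p = 0.00158). It lay below the thymic one for Klf1 (-5.49 ± 0.67 log2 units, adjusted p = 1.6e-09), for Gata1 (-3.41 ± 0.80, adjusted p = 0.000727) and for Epor. Gata1 did not pass with 0.1 added to FPKM (limma, adjusted p = 0.148) or with only the 4 groups in the fit (adjusted p = 0.116).

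At the later thymic stages few of the 7 genes moved. At DN1, where 18.8% of genes were called, Gata1 was at 1.26, 1.49, 3.24 and 5.50 FPKM in the induced libraries and at 0, 0 and 0.257 FPKM in the natural ones, without overlap. It was 1.71 ± 0.47 log2 units higher in induced DN1 (limma, adjusted p = 0.00603). Car2 was at 5.20, 1.69, 11.8 and 8.07 FPKM in induced and 42.4, 42.6 and 25.9 FPKM in natural DN1, again without overlap. It was 2.48 ± 0.46 log2 units lower in induced DN1 (adjusted p = 3.8e-05). Both calls held when any 1 library was left out. At CD4 SP, where 26.4% of genes were called, Car2 was at 0.239, 0.947, 0.694 and 0.127 FPKM in induced and 6.13, 0.547 and 3.24 FPKM in natural cells, which overlapped. The difference of -1.30 ± 0.46 log2 units (adjusted p = 0.0295) was lost with 0.1 added to FPKM (adjusted p = 0.0679) and in 4 of the 7 fits without 1 library (adjusted p up to 0.298). At DN2, DN3, DN4, DP and CD8 SP, where 1.5%, 3.54%, 0.741%, 10.4% and 10.6% of genes were called, none of the 7 genes passed in limma. In those stages Epor in DP (0.0270) and Car2 in CD8 SP (0.0157) had an unadjusted p under 0.05 in limma.

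The genes with the most similar pattern were taken as the 5 with the highest Pearson correlation of log2(FPKM + 1) over the 24 group means, among 11107 candidates. For Hba-a1 they were Hba-a2 (r = 0.958), Rnase12 (0.934), Hbb-bs (0.930), Spsb4 (0.925) and Stac (0.916). For Hba-a2 they were Stac (0.975), Crhbp (0.973), Rarres1 (0.968), Hba-a1 (0.958) and Zmat4 (0.958). Since both alpha globin genes are near 0 in most groups, these values rest mainly on the 1 group of induced marrow ETP. For Klf1 the list was Aqp1 (0.884), Csrp3 (0.883), Syce1 (0.882), Cldn13 (0.880) and Slc38a5 (0.876), and for Gata1 it was Syce1 (0.833), Gng12 (0.787), Kcnip3 (0.776), Aqp1 (0.766) and Mt2 (0.765). Aqp1, the water channel of red cells, and Syce1 were thus in both lists. For Epor they were Zg16 (0.975), Treml1 (0.961), Ces2g (0.957), Epdr1 (0.946) and Icam4 (0.943), the last a red cell adhesion protein. For Car2 they were Pcp4l1 (0.914), Adgrl2 (0.907), Tmem98 (0.903), Eya1 (0.897) and Rai14 (0.887). For Alas2 they were Ighv7-4 (0.981), P2ry12 (0.960), Ms4a8a (0.950), Retnlg (0.940) and Ighg1 (0.933). Alas2 was listed at 0 in 63 of 75 libraries, so its values rest mainly on low levels in mature myeloid cells and induced marrow ETP.

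Among the 7 genes, Klf1, Gata1 and Epor correlated more with each other than with the alpha globin genes over the 24 group means. The correlation was 0.735 between Klf1 and Gata1, 0.759 between Klf1 and Epor and 0.676 between Gata1 and Epor. Hba-a1 correlated at 0.304 with Klf1, 0.133 with Gata1 and 0.129 with Epor, and Hba-a2 at 0.0819, -0.0521 and -0.0542. The points share libraries between genes, and the leading groups of each gene weigh most.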

How the data were processed

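RNA from 1000 sorted cells per library was amplified as cDNA and tagmented with Nextera XT, per the labels' protocols. The authors deposited FPKM values per Ensembl gene and library, made with bcl2fastq, TopHat, Cufflinks 2.2.1 and Cuffnorm on build NCBIM37, per the submitters' processing notes. The parameters, the annotation version and the normalization between libraries are not given in the sources used here. Cufflinks estimates how fragments are shared between near-identical genes, which bears on the globin pairs, and an estimate of 0 does not show that a gene was silent.

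Symbols and positions came from GENCODE vM21 (GRCm38, not the authors' build), and 32916 of 37980 IDs (86.7%) had a symbol. The 7 genes, the gene lists and the tests were chosen with earlier results of these data known. The 17416 genes that reached 1 FPKM in 2 or more libraries, 16304 of them with a symbol, were tested on log2(FPKM + 1) in 1 model with a mean for each of 24 groups, with limma 3.58.1 (empirical Bayes, trend and robust settings) in R 4.3.3. Tests were two-sided. Within each of 18 comparisons Benjamini-Hochberg adjustment covered all tested genes, and calls were made at an adjusted p under 0.05. Lists were described by counts and medians. The genes named as similar followed a rule stated with them, which left out predicted genes, pseudogenes, ribosomal protein genes and genes whose highest group mean was under 5 FPKM.

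Fragment counts were not used here. Depth was estimated from the steps between low values of 4285 single-transcript genes of at least 1000 bases: 1 FPKM stood for 0.974 to 11.2 fragments per kilobase over the libraries, and 73.2% to 93.6% of low values lay within 0.2 of a whole fragment. Total FPKM was 667660 to 2004010 per library. Levels in FPKM are given per library. Alternatives were a replicate block, library weights, quantile normalization, equal totals, no filter, a pseudocount of 0.1, only the compared groups in the fit, and leaving out each library in turn. Levels, correlations and figures were made in Python 3.11.15 (matplotlib 3.10.9, scipy 1.17.1, pandas 2.3.3, numpy 2.4.6).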

Additional observations from a re-analysis of the deposited data

Results flagged for a closer look

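In 4 of 18 cases tested, each 1 gene in 1 group of 4 libraries with a library at 1 FPKM or more, 1 library lay far from the other 3 by Dixon's criterion. Chance meets it in about 1 of 20 groups for continuous values, a rate that does not hold where the other 3 libraries are listed at 0, since any value above 0 then meets it. Hba-a1 was at 1.96 FPKM in 1 MPP library and listed at 0 in the other 3. Hba-a2 was at 1.92 FPKM in 1 mature B library and listed at 0 in the others. In induced CD4 SP cells, 1 library held 5.73 FPKM of Gata1, and 1 library held 1.51 FPKM of Epor with the other 3 listed at 0.

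The difference between induced and natural cells was not the same in marrow ETP as in thymic ETP for 6 of the 7 genes, by the interaction term of the model over all libraries. The marrow difference minus the thymic one, in log2(FPKM + 1), was 3.45 for Hba-a1, 6.06 for Hba-a2 and 3.12 for Car2, and it was -5.49 for Klf1, -3.41 for Gata1 and -3.18 for Epor. Hba-a1, Hba-a2 and Epor were listed at 0 in all thymic ETP libraries, natural and induced, so their values equal the marrow difference alone. In 2 of the 4 groups the spread rests on 2 libraries.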

How the results depend on the processing

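Over the single-gene results and their alternatives, 596 values kept their direction and side of the threshold. Another 38 kept their direction but lost the call. For the number of the 7 genes called, changes of at most 1.5 times are not all listed below. One of them is induced against natural marrow ETP with only these groups in the fit. There Hba-a1 and Alas2 lost the call (limma, adjusted p = 0.0911 and 0.345). The number of the 7 genes called changed from 1 to 0 for CD4 SP with a pseudocount of 0.1, with an equal total and with only the compared groups in the fit, from 0 to 1 for CD8 SP with a pseudocount of 0.1, with library weights and with only the compared groups, from 1 to 2 for MPP against pro/pre-B with quantile normalization, library weights and the replicate block, from 1 to 0 for thymic ETP and from 4 to 0 for induced marrow ETP against pro/pre-B with only the compared groups. With 1 library left out at a time it ran from 0 to 3 for thymic ETP, 0 to 1 for DP, 0 to 1 for CD4 SP, 3 to 5 for induced marrow ETP against HSC, 1 to 2 for MPP against pro/pre-B and 5 to 6 for induced against natural marrow ETP. Where this left 1 library in a group, that library is assumed to vary like the others. The count of all genes called moved by over 1.5 times with library weights in 5 of 18 comparisons (0.341 to 11.3 times) and with only the compared groups in 9 of 18 (0 to 2.9 times). Leaving out 1 library took it from 1441 to 771 at the lowest for thymic ETP, from 262 to 130 for DN2, from 616 to 315 for DN3, from 129 to 77 for DN4 and from 2698 to 1706 for induced marrow ETP against pro/pre-B. Replicate numbers did not pair the libraries: deviations of same-numbered libraries correlated at -0.0401 to 0.0544, and the replicate block moved the count of genes called by 0.977 to 1.09 times. The causes of these shifts were not tested. Low levels such as Alas2 rest on few fragments, and the 2 libraries of induced marrow ETP limit every comparison that uses them.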
